A study of Mus musculus with 60 samples.

Results

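The genes described here encode the standing subunits of the proteasome, the barrel-shaped protease that breaks down proteins tagged with ubiquitin. They were taken as every gene of the count table whose symbol is Psma, Psmb, Psmc or Psmd followed by a number, without the immunoproteasome genes Psmb8, Psmb9 and Psmb10. This gave 36 of 55011 genes. Of them 16 belong to the 20S core (Psma and Psmb) and 20 to the 19S cap (Psmc and Psmd). The core is a stack of rings: alpha subunits form the gated outer rings, and beta subunits the inner rings, in which Psmb6, Psmb7 and Psmb5 cut after acidic, basic and hydrophobic residues. The cap recognises tagged proteins. Its base holds the Psmc ATPases, which unfold the substrate, and its lid holds Psmd14, which removes the ubiquitin. When proteasome capacity falls short, the transcription factor Nrf1 (gene Nfe2l1) raises the subunit genes together through antioxidant response elements, and brown fat uses this route in the cold. Inflammatory signals such as interferon gamma exchange the catalytic beta subunits for Psmb8, Psmb9 and Psmb10.

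The 60 libraries, all from male mice of 8 weeks, fall into 19 groups. Sorted regulatory T (Treg) cells came from interscapular brown adipose tissue (BAT, 2 libraries), subcutaneous adipose tissue (SAT, 3) and spleen (3) of wild-type mice carrying a Thy1.1 reporter on Foxp3, gated as live CD45+Tcrb+CD4+Thy1.1+ cells. The other 52 libraries hold whole fat. In the B6.Foxp3.DTR strain (DTR+) the Foxp3 locus drives the diphtheria toxin receptor, so toxin (DT) removes Treg cells. DTR- mice lack it, and in the groups named D4 (4 libraries each) and D3 (3 each), DTR+ and DTR- mice all received DT, with BAT and SAT sampled. The D3 titles also name PBS, and the labels do not say whether D3 and D4 are days. In a further experiment on BAT, DTR+ mice with DT and CL, DTR- mice with DT and CL and DTR- mice with DT and PBS gave 3 libraries each. CL is read here as CL-316243, which activates the beta-3 adrenergic receptor. Wild-type C57BL/6J mice given PC61, an antibody against CD25, or its isotype gave 3 BAT libraries each, as did DTR+ mice with DT and anti-IFNg and DTR+ mice with DT and isotype. The last 3 BAT libraries came from mice held at 4 degrees with PBS. Their titles say WT and their genotype label DTR-, and no DT is listed for them. The labels do not tie replicates to separate mice, so each p-value speaks to library-to-library spread, part of which can be technical.

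Library totals ran from 3007241 to 9673342 counts. The tissue labels fitted their markers: 5 brown adipocyte genes summed to between 8467 and 31360 CPM, read counts scaled to a common library size, in BAT libraries, 161 to 1389 CPM in SAT libraries and 0.128 to 1.37 CPM in Treg libraries, and all 6 Treg markers were detected in each Treg group. The 5 B cell genes were detected in each Treg group too. They summed to 632 to 640 CPM in BAT, 475 to 647 CPM in SAT and 720 to 759 CPM in spleen Treg libraries. Of these 5, 0 were called between Treg cells of fat and spleen, and their part in the Treg results was not tested. The 6 muscle genes varied widely within whole-fat groups. They summed to 13.0 to 2360 CPM in DTR- and 18.7 to 5654 CPM in DTR+ BAT at D4. With PC61 they summed to 209 to 7047 CPM, and with its isotype to 4.09 to 1595 CPM. Of the 6, 0 were called in either comparison. The part of muscle RNA in the member results was not tested. A pair of control libraries stood apart in T and NK cell markers. PBS replicate 3 (DTR- BAT) held 139 CPM of 7 T and NK cell markers, against 16.1 and 6.89 CPM in PBS replicates 1 and 2, and its Psmb8 level was 1029 CPM, against 73.0 and 45.7 CPM in PBS replicates 1 and 2. SAT DTR- D4 replicate 3 held 167 CPM of these markers, against 17.6 to 19.3 CPM in the other SAT DTR- D4 libraries. Results on the CL and cold groups are therefore also given without PBS replicate 3. The values below for Treg depletion in SAT at D4 and for BAT over SAT at D4 include SAT DTR- D4 replicate 3.

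Of the 36 genes, 34 passed the low-count filter in every comparison, and 2 passed it in none. These 2 are Psma8, the alpha subunit of the testis, with 59 counts over the 60 libraries, and Psmb11, the catalytic beta subunit of thymic epithelium, with 18. The largest value of Psma8 was 17 counts in SAT DTR+ D4 replicate 3, and that of Psmb11 was 10 counts in spleen Treg replicate 1. All other members had counts in all 60 libraries. Per kilobase of exon, the highest of them in BAT of DTR- D4 mice were the catalytic gene Psmb5 (249 CPM per kb), the alpha gene Psma6 (244) and the beta gene Psmb2 (222). The lowest were the chaperones Psmd9 (5.00 CPM per kb) and Psmd5 (8.08), which help assemble the cap base and leave it when it is finished, and the lid gene Psmd11 (22.2). In spleen Treg cells the highest were Psmb2 (74.6 CPM per kb) and the base ATPase Psmc5 (70.4), and Psmb5 stood at 26.0. Exon length here is the union over all transcripts, which understates genes with many rarely used exons.

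Summed over members, the 20S genes made up 1242 ± 6.09 CPM in BAT Treg cells (SD, n = 2), 1261 ± 88.2 CPM in SAT Treg cells and 1349 ± 4.46 CPM in spleen Treg cells (n = 3 each). In whole fat the group means ran from 2358 CPM in SAT DTR- D4 to 3955 CPM in BAT of DTR+ mice with CL. The 19S genes summed to 1658 ± 64.6, 1679 ± 115 and 1762 ± 8.44 CPM in Treg cells of BAT, SAT and spleen, and to between 2419 CPM (DTR+ isotype BAT) and 3721 CPM (DTR+ with CL) in whole fat. Sorted cells and whole tissue were prepared differently, so no test was made between them. The factors that scale these CPM (TMM) ran from 1.59 to 1.69 in Treg libraries and 0.738 to 1.12 in whole fat. A larger factor gives a lower CPM. The gap between Treg cells and whole fat thus depends on scaling, as does their order for the 19S. Among whole-fat groups the member with the smallest spread was Psmb1, a structural beta subunit, whose highest group mean (336 CPM) was 1.34 times its lowest (251 CPM). The widest were Psma1 (3.07 times), Psmd11 (2.87 times) and Psmc4 (2.86 times).

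**Figure D1:**
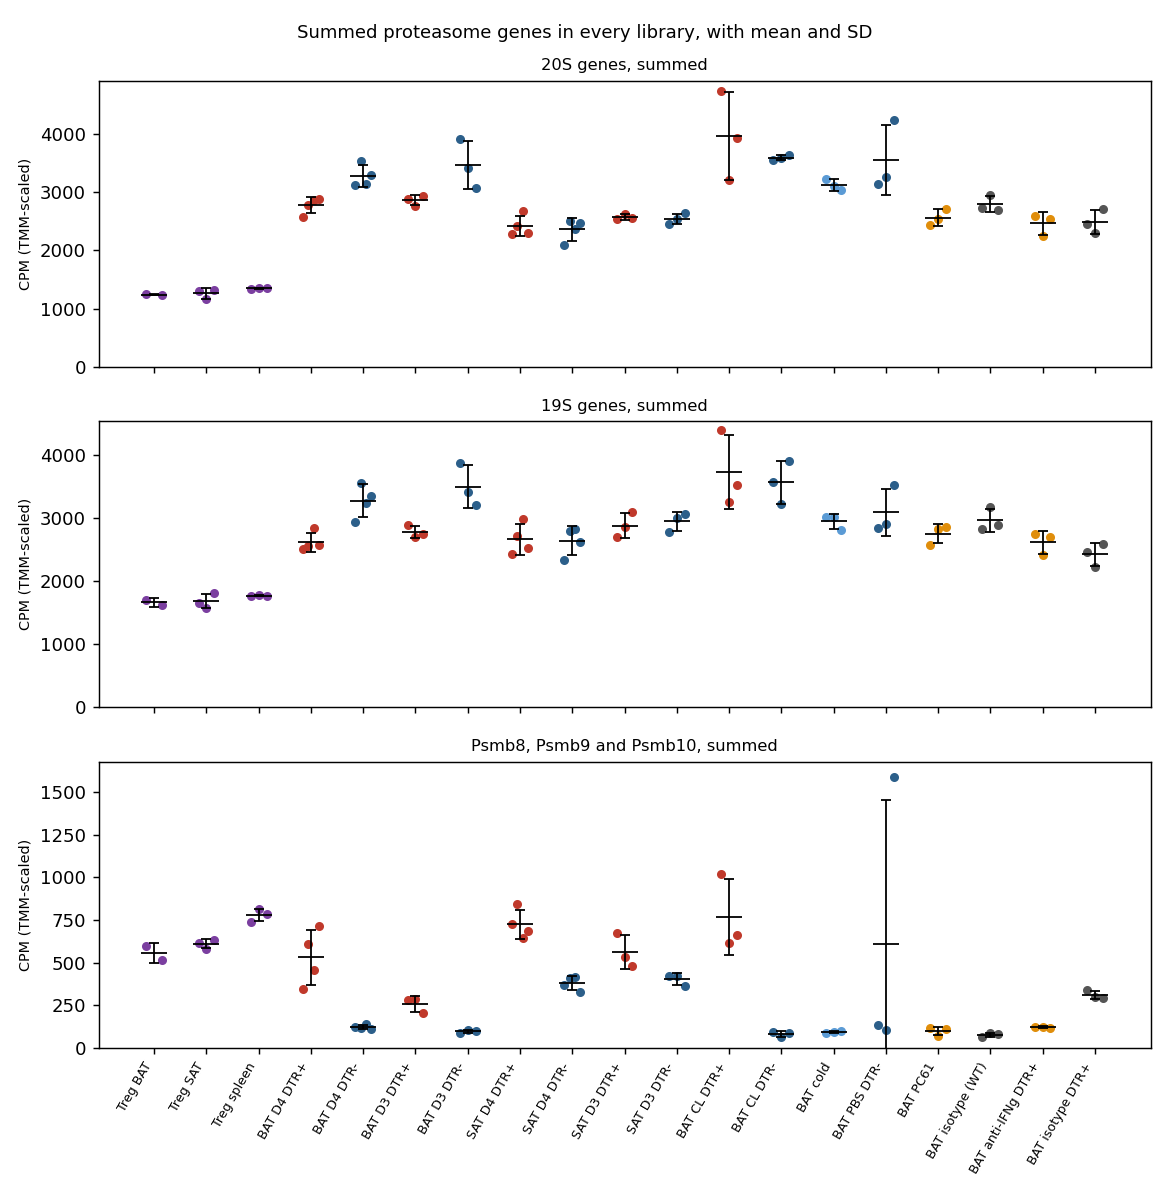
Summed level of the 20S genes, the 19S genes and the 3 immunoproteasome genes (CPM, linear axes from 0) in each of the 60 libraries, by group, with group mean and SD. On TMM factors the Treg groups lie lowest in both constitutive sums, at group means of 1242 to 1349 CPM for 20S. These factors were largest in Treg libraries, and the 19S order depends on them. PBS replicate 3 stands at 1589 CPM in the immunoproteasome panel, against 132 and 103 CPM in the other PBS libraries.

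Sequence upstream of the members was read from RefSeq windows of 250 bases before and 50 after each transcription start (build GRCm38.p6), which held 31 windows for 29 of the 36 members. Shown here are the windows of Psmb5 (chr14:54617946-54618245 (minus strand)) and Psmb6 (chr11:70525107-70525406 (plus strand)), catalytic genes with a match to the core of the antioxidant response element, of Psmd9 (chr5:123227940-123228239 (plus strand)), Psmd10 (chrX:140956662-140956961 (minus strand)) and Psmd5 (chr2:34870913-34871212 (minus strand)), the chaperones that fell with CL, and of Psmc4 (chr7:28050043-28050342 (minus strand)) and Psmd11 (chr11:80428365-80428664 (plus strand)), the members with the largest fall after Treg depletion and the largest rise with CL. Capitals mark TGACNNNGC, the element's core.
Psmb5: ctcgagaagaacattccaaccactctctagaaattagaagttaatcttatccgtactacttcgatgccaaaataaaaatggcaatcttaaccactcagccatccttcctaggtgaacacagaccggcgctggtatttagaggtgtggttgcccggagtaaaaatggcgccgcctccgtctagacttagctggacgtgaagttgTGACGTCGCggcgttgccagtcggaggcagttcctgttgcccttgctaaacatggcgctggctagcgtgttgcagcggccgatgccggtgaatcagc
Psmb6: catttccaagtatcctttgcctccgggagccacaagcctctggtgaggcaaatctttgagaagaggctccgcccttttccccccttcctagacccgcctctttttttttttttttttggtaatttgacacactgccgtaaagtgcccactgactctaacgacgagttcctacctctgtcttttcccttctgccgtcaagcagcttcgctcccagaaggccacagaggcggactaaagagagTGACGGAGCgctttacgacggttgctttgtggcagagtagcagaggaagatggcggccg
Psmd9: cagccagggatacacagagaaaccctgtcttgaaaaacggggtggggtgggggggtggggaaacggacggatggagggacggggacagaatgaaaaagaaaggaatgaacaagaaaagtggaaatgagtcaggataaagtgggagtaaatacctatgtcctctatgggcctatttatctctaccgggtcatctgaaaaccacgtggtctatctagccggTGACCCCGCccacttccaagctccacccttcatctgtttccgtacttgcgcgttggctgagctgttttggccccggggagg
Psmd10: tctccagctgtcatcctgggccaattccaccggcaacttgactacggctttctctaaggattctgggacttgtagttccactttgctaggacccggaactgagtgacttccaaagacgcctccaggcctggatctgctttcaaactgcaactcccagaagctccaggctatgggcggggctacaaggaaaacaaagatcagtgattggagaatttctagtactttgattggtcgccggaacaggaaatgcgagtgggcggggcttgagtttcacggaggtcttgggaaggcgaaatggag
Psmd5: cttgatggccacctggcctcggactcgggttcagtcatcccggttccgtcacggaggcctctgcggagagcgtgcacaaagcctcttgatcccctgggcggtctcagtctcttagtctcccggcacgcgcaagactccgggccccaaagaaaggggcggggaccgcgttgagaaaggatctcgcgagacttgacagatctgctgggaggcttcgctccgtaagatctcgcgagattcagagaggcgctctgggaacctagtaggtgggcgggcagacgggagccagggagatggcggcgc
Psmc4: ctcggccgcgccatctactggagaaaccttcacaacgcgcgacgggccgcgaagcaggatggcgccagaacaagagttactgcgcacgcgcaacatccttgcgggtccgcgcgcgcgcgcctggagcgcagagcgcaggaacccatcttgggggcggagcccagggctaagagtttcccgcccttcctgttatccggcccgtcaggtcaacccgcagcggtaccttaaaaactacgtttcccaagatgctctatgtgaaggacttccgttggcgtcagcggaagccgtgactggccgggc
Psmd11: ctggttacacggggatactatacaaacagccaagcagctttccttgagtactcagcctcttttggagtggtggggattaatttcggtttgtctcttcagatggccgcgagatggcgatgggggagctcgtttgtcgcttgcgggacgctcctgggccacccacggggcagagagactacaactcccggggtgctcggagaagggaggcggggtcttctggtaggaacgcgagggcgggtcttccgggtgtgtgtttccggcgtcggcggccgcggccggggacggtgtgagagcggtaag
The core TGACNNNGC, searched on both strands, lay in 5 of 31 member windows (16.1%), those of Psmb5, Psmb6, Psmc6, Psmd12 and Psmd9, and in 12.4% of all 32851 windows of this length. The cAMP response element TGACGTCA, which starts with the same letters TGAC, lay in 0 of 31 and in 1.79% of all windows. CCAAT lay in 12 of 31 (38.7%) and in 37.4% of all. These are matches of letters and not measured binding.

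Constitutive genes were lower in DTR+ than in DTR- BAT at D4 on TMM factors. Of 34 tested members, 10 fell and 0 rose in DTR+ BAT (edgeR adjusted p under 0.05), 4 of 14 in the 20S and 6 of 20 in the 19S. Over all 11695 genes tested, 7.36% fell and 8.73% rose. The median log2 fold change was -0.25 for the 20S members and -0.23 for the 19S members, against 0.02 for all genes. All 20 tested 19S members had a negative log2 fold change, as did 11 of 14 20S members. DESeq2 called 12 members lower and 0 higher, and 8.59% of all genes lower and 9.58% higher.

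Psmc4, a base ATPase, had the lowest p. It stood at 104, 101, 128 and 113 CPM in DTR+ BAT, against 163, 187, 181 and 178 CPM in DTR- BAT. Each DTR+ library lay below each DTR- library. Its log2 fold change was -0.64 ± 0.10 (SE, adjusted p = 0.00062). Among lid genes, Psmd12, a scaffold subunit, stood at 110.1, 104, 108 and 112 CPM in DTR+ BAT, against 133, 178, 155 and 159.7 CPM in DTR- BAT, a log2 fold change of -0.50 ± 0.10 (adjusted p = 0.0038). Psmd6, another lid subunit, averaged 103 ± 11.9 CPM in DTR+ BAT and 144 ± 10.9 CPM in DTR- BAT (SD, n = 4 each) and fell by 0.46 ± 0.11 (adjusted p = 0.0074). The DTR+ and DTR- libraries did not overlap for either gene. Psmd14, the deubiquitinase, had 76.6, 109, 118 and 106 CPM in DTR+ BAT, against 112, 173, 159.9 and 146 CPM in DTR- BAT. These ranges overlapped, and the log2 fold change was -0.50 ± 0.15 (adjusted p = 0.037).

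The base scaffolds moved alike. Psmd2, which docks ubiquitin receptors, had 253, 244, 296 and 243 CPM in DTR+ BAT, against 337, 373, 344 and 322 CPM in DTR- BAT, with no overlap and a log2 fold change of -0.38 ± 0.10 (adjusted p = 0.012). Psmd1, the other large scaffold, had 144, 142, 181 and 157 CPM in DTR+ BAT, against 174, 242, 234 and 235 CPM in DTR- BAT, and fell by 0.47 ± 0.12 (adjusted p = 0.013). Only DTR- replicate 1 lay within the DTR+ range. The chaperones Psmd5, Psmd9 and Psmd10 did not pass the threshold.

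In the core, the trypsin-like catalytic gene Psmb7 had 96.1, 83.9, 110.5 and 94.5 CPM in DTR+ BAT, against 120.4, 148, 129.8 and 124 CPM in DTR- BAT. The groups did not overlap, and the log2 fold change was -0.41 ± 0.11 (adjusted p = 0.019). The structural gene Psmb3 averaged 119 ± 9.28 CPM in DTR+ BAT and 159 ± 10.2 CPM in DTR- BAT and fell by 0.38 ± 0.10 (adjusted p = 0.013). The alpha genes Psma3 and Psma6 fell by 0.39 ± 0.10 and 0.27 ± 0.09 (adjusted p = 0.014 and 0.050). The other catalytic genes did not pass: Psmb5 had 166, 153, 206 and 204 CPM in DTR+ BAT, against 223, 232, 212 and 228 CPM in DTR- BAT, without overlap (log2 fold change -0.27 ± 0.11, adjusted p = 0.11), and Psmb6 averaged 338 ± 19.2 CPM in DTR+ BAT and 372 ± 16.1 CPM in DTR- BAT (-0.11 ± 0.09, adjusted p = 0.47).

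Scaling decided most of these calls. With library totals in place of TMM factors the median of all genes moved to 0.27, the members' median stood at 0.02, and 1 member, Psmc4, remained lower (-0.38, adjusted p = 0.013). Relative to all genes the members lay 0.25 lower on the log2 scale under either scaling. A change of scaling shifts all genes nearly alike, so this gap could hardly change and does not test the scaling. The same holds for the gaps to all genes given below. Leaving out single libraries left 7 to 16 members called, with 16 called without DTR- D4 replicate 1. These counts lack a background, since the shares of all genes called in those fits are not given here. Psmc4, Psmd12, Psmd6, Psmd2, Psmd1, Psmb3 and Psma3 were called in every such fit. Psmb7 was lost without replicate 2 of DTR- (adjusted p = 0.060) and without replicates 2 and 4 of DTR+ (0.058 and 0.053), Psmd14 without any library other than DTR- replicate 1 or DTR+ replicate 3 (0.057 to 0.095), and Psma6 without any of 5 libraries, DTR- replicates 2 and 4 and DTR+ replicates 1, 3 and 4 (0.061 to 0.12).

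Cell type markers moved with this comparison. The 5 brown adipocyte genes summed to 8467 to 9940 CPM in DTR+ BAT, against 13563 to 16132 CPM in DTR- BAT, with 4 of 5 lower and 1 higher. The 11 macrophage and monocyte genes, all detected, summed to 680 to 1443 CPM in DTR+ BAT, against 199 to 437 CPM in DTR- BAT, with 7 of 11 higher. The 7 T and NK cell genes summed to 20.3 to 55.7 CPM in DTR+ BAT, against 4.93 to 6.74 CPM in DTR- BAT, and the 3 of them that could be tested were higher. The 6 Treg markers summed to 9.90 to 23.5 CPM in DTR+ BAT, against 8.04 to 10.1 CPM in DTR- BAT. Only 1 of the 6 could be tested and 0 were called, and Foxp3 had no counts in DTR+ BAT. These libraries thus cannot show how far Treg cells were removed. In whole tissue fewer cells of a type and less RNA per cell cannot be told apart, and the part of these shifts in the proteasome results was not tested. The 3 immunoproteasome genes moved the other way in the same libraries. Psmb8 stood at 173, 331, 225 and 359 CPM in DTR+ BAT, against 49.0, 46.8, 68.8 and 46.0 CPM in DTR- BAT, a log2 fold change of 2.40 ± 0.26 (adjusted p = 0.00066), with Psmb9 at 2.42 ± 0.23 and Psmb10 at 1.61 ± 0.17 (adjusted p = 7.1e-05 and 3.2e-05).

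**Figure D2:**
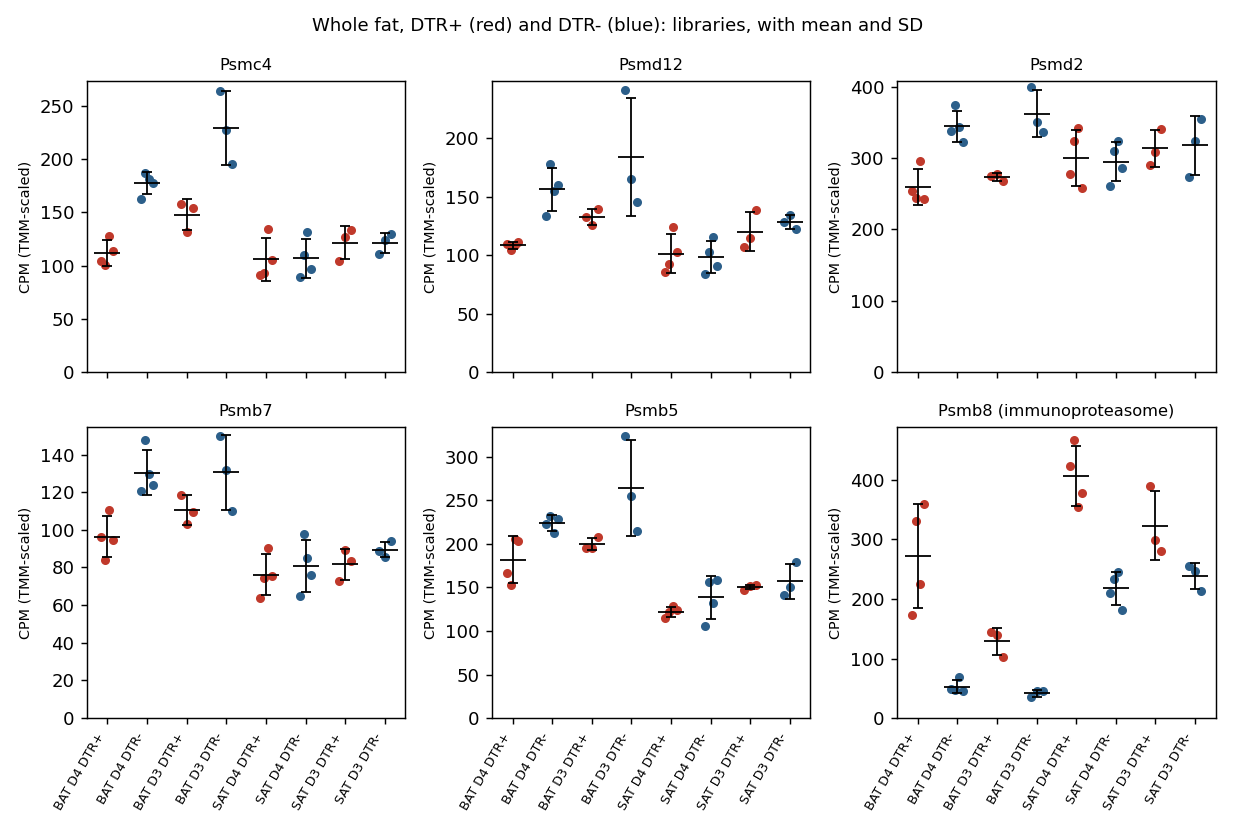
CPM (linear axes from 0) of 5 constitutive genes and Psmb8 in whole BAT and SAT at D4 and D3; points are libraries, bars the mean and SD, DTR+ red and DTR- blue. In BAT at D4 the DTR+ points of Psmc4 lie between 101 and 128 CPM and the DTR- points between 163 and 187 CPM, whereas the SAT points of the same gene overlap; the BAT direction of Psmc4 was the same with library totals (-0.38).

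The D3 libraries, which are separate from those of D4, gave 1 member lower and 0 higher in DTR+ BAT, where 1.29% of all 11666 genes tested fell and 2.24% rose. This was again Psmc4, at 158, 131 and 154 CPM in DTR+ BAT, against 264, 227 and 196 CPM in DTR- BAT. The groups did not overlap, and the log2 fold change was -0.62 ± 0.13 (adjusted p = 0.020). The call was lost without DTR- D3 replicate 1 (0.061) or DTR+ D3 replicate 1, 2 or 3 (0.071, 0.092 and 0.054), and with library totals (-0.41, adjusted p = 0.058). DESeq2 called 2 members lower, where it called 2.11% of all genes lower and 2.86% higher. The 10 members called at D4 all had negative values at D3, with a median of -0.36, and 22 of the other 24 members were negative too, with a median of -0.22. The 20S members had a median of -0.26 and the 19S members -0.32, against 0.02 for all genes, and 18 of 34 had an unadjusted p under 0.05, as did 17.9% of all genes. Psmd2 stood at 275, 277 and 267 CPM in DTR+ BAT, against 399, 350.2 and 337 CPM in DTR- BAT (-0.40 ± 0.11, adjusted p = 0.062). With library totals the median of all genes was 0.22 and that of the members -0.08. The gap to all genes was 0.31 under either scaling, which again does not test the scaling. The brown adipocyte genes summed to 11313 to 14202 CPM in DTR+ BAT, against 17329 to 21678 CPM in DTR- BAT, with 0 of 5 called. The macrophage and monocyte genes summed to 405 to 461 CPM in DTR+ BAT, against 183 to 316 CPM in DTR- BAT, with 1 of 11 called higher. Neither sum overlapped between the groups, and their part was not tested. No member passed the test of the difference between the depletion effects in BAT at D4 and D3 (0 called of 34 and 0% of 12757 genes in either direction by edgeR, 0 members with an unadjusted p under 0.05, against 5.74% of all genes). DESeq2 called 0 members, 0.0314% of all genes higher and 0% lower. For Psmc4 the difference was -0.01 ± 0.17 on the log2 scale.

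In SAT no member passed. At D4 the members' median was 0.01, with 0.299% of 12728 genes higher and 0.0157% lower in DTR+ SAT. At D3 it was -0.01, with 0% of 12596 genes called in either direction. At an unadjusted p under 0.05 there were 1 and 2 members at D4 and D3, against 7.42% and 4.99% of all genes, and DESeq2 called 0 in both, where it called 0.597% and 0.151% of all genes higher and 0.134% and 0% lower. Psmc4 stood at 91.1, 92.9, 135 and 105 CPM in DTR+ SAT, against 89.1, 109.7, 132 and 96.9 CPM in DTR- SAT at D4, so the groups overlapped (-0.01 ± 0.15, adjusted p = 0.99). At D3 it averaged 122 ± 15.4 CPM in DTR+ SAT and 122 ± 9.28 CPM in DTR- SAT. Psmb8, Psmb9 and Psmb10 rose in SAT at D4 all the same, by 0.90 ± 0.13, 1.19 ± 0.12 and 0.69 ± 0.11 on the log2 scale (adjusted p = 0.0034, 0.00014 and 0.014).

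The difference between tissues was tested directly as the depletion effect in BAT minus that in SAT. At D4 it was negative for 33 of 34 members, with medians of -0.26 in the 20S and -0.29 in the 19S, and 0 members passed, against 3.06% of 13502 genes with a positive and 1.05% with a negative called difference. DESeq2 called 3 members negative, where it called 2.48% of all genes negative and 4.79% positive. At an unadjusted p under 0.05 there were 12 of 34 members and 18.5% of all genes. Psmc4 came nearest at -0.65 ± 0.19 (adjusted p = 0.053). Without SAT DTR- D4 replicate 3, 2 members were called, and the share of all genes called in that fit is not given here. At D3 the medians were -0.30 and -0.35, with 0 members called by edgeR or DESeq2, 11 with an unadjusted p under 0.05 (10.9% of all genes), and 0.0600% of 13325 genes positive and 0.00750% negative by edgeR (0.750% and 0.315% by DESeq2). With library totals the median of all genes rose to 0.29 at D4 and 0.21 at D3, and the members lay 0.27 and 0.31 below it. A different response of the members in BAT and SAT was thus not established at this replication.

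BAT and SAT of DTR- mice themselves differed in constitutive proteasome RNA. At D4, 20 of 34 members were higher in BAT and 0 lower, 11 of 14 in the 20S and 9 of 20 in the 19S, where 25.9% of 12310 genes were higher and 25.0% lower. At D3, 16 were higher and 0 lower, 10 in the 20S and 6 in the 19S, against 23.0% and 22.9% of 12387 genes. The median was 0.62 for the 20S and 0.28 for the 19S at D4, and 0.53 and 0.20 at D3. These counts depend on scaling. With library totals the median of all genes moved to -0.47 at D4 and -0.49 at D3, and 6 members were then higher and 10 lower in BAT at D4, and 5 higher and 11 lower at D3. The share of all genes called on that scale is not given here, so these counts lack a background. Relative to all genes the 20S stood 0.61 and the 19S 0.28 higher at D4, and 0.54 and 0.21 higher at D3 with library totals. These gaps hardly depend on scaling, so they do not test it.

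Psmb3, a structural beta subunit, was among the members with the largest difference. It had 167, 169, 149.7 and 151 CPM in BAT, against 73.0, 95.5, 84.3 and 82.7 CPM in SAT at D4, and 199, 184 and 155 CPM in BAT, against 89.9, 96.0 and 98.4 CPM in SAT at D3. No BAT library overlapped a SAT library, and the log2 fold change was 0.98 ± 0.10 at D4 and 0.98 ± 0.13 at D3 (adjusted p = 2.3e-06 and 3.5e-05). The lid gene Psmd8 averaged 371 ± 22.7 CPM in BAT and 205 ± 19.8 CPM in SAT at D4, and 367 ± 18.4 CPM in BAT and 204 ± 22.2 CPM in SAT at D3, a log2 fold change of 0.91 both times. Psmc4 was higher in BAT by 0.79 ± 0.12 at D4 and 0.98 ± 0.14 at D3. These 3 genes were called higher with library totals too, as was Psma6, an alpha subunit, with 0.74 ± 0.11 and 0.81 ± 0.12 on TMM factors.

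The catalytic genes Psmb5, Psmb6 and Psmb7 were each called higher in BAT at both D4 and D3 with TMM factors. Psmb5 had 223, 232, 212 and 228 CPM in BAT, against 106, 157, 132 and 159 CPM in SAT at D4, without overlap (0.75 ± 0.12, adjusted p = 0.00013), and 0.82 ± 0.16 at D3 (adjusted p = 0.00083). Under library totals Psmb5 stood at 0.27 (adjusted p = 0.056) at D4 and 0.34 (0.047) at D3, while Psmb6 was at 0.03 and -0.01. Psmd14 went the other way on that scale: its log2 fold change was 0.11 ± 0.13 at D4 and 0.07 ± 0.14 at D3 on TMM factors (adjusted p = 0.52 and 0.69), and -0.37 and -0.40 with library totals (0.023 and 0.013). Psmd3, a lid subunit named after its values were seen, had 90.5, 169.8, 191 and 208 CPM in BAT at D4 and 87.7, 118 and 97.0 CPM in BAT at D3, against 97.1, 118, 124 and 60.9 CPM in SAT at D4 and 114, 120.5 and 103 CPM in SAT at D3, and it was called in neither. The tissues overlapped both times. In all, 15 members were called at D4 and D3, 9 in the 20S and 6 in the 19S, where 19.8% of the 11983 genes tested both times were higher in BAT in both. These comparisons share no library. Markers moved with tissue: all 11 macrophage and monocyte genes were lower and all 5 brown adipocyte genes higher in BAT at D4, and their part was not tested. Psmb8, Psmb9 and Psmb10 were lower in BAT, by 1.99, 1.65 and 0.84 at D4.

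**Figure D3:**
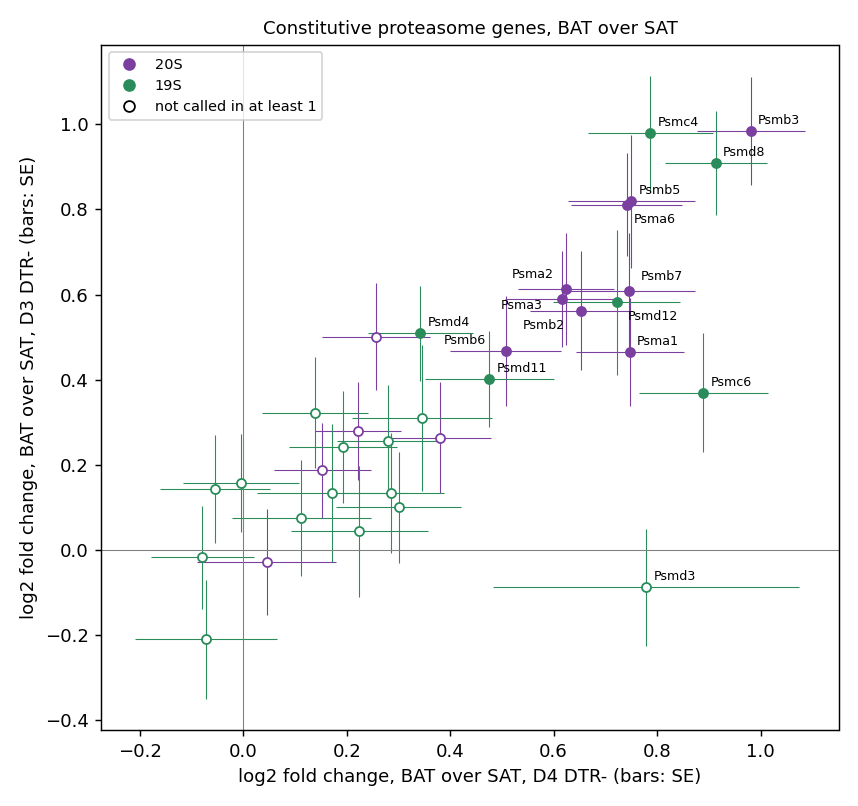
Log2 fold change of BAT over SAT (edgeR, TMM factors) for the 34 tested members in DTR- mice at D4 (x) and D3 (y), with SE bars; filled points were called in both. Psmb3, Psmd8 and Psmc4 lie at the upper right, at 0.79 or more on both axes. With library totals all values shift down by about the all-gene median (-0.47 and -0.49), and 10 and 11 members are then called lower. The share of all genes called on that scale is not given here.

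With CL, members moved in both directions. Of 34, 3 were higher and 5 lower in BAT of DTR- mice with CL than with PBS, where 16.3% of 12048 genes were higher and 11.8% lower. The share of members called was thus no larger than that of all genes. The medians were -0.11 for the 20S and 0.16 for the 19S, against -0.03 for all genes, and the median of all genes moved to -0.10 with library totals, under which 3 members were higher and 5 lower. DESeq2 called 3 higher and 5 lower as well, and 17.5% and 14.2% of all genes.

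The lid gene Psmd11, whose product is a scaffold of the lid and in human cells raises proteasome activity when abundant, had 243, 212 and 221 CPM with CL, against 108, 101 and 91.6 CPM with PBS. The lowest library with CL was above the highest with PBS, and the log2 fold change was 1.17 ± 0.16 (adjusted p = 0.00015). It stayed between 1.12 and 1.24 when any 1 library was left out. The base scaffold Psmd1 had 245, 211 and 233 CPM with CL, against 149, 156 and 166 CPM with PBS (0.55 ± 0.15, adjusted p = 0.016), and the alpha gene Psma1 had 652, 589 and 552 CPM with CL, against 300.4, 322 and 480.3 CPM with PBS (0.70 ± 0.20, adjusted p = 0.017). Both of these calls were lost without CL replicate 1 or PBS replicate 1 or 2 (adjusted p = 0.051 to 0.075).

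The 3 base assembly chaperones among the members fell with CL. Psmd5 had 28.0, 38.8 and 26.8 CPM with CL, against 50.2, 71.7 and 72.7 CPM with PBS (-1.05 ± 0.24, adjusted p = 0.0058). Psmd9 had 15.8, 24.4 and 22.4 CPM with CL, against 43.1, 45.2 and 41.5 CPM with PBS (-1.04 ± 0.25, adjusted p = 0.0072). Psmd10, also called gankyrin, had 16.3, 15.6 and 20.2 CPM with CL, against 27.1, 44.9 and 46.7 CPM with PBS (-1.19 ± 0.29, adjusted p = 0.0074). No library with CL reached the PBS range for any of the 3 genes, and each call held whichever library was left out. Psmd9 shares 1849 of its 7248 exonic bases with the antisense gene Gm26745, and reads of the 2 cannot be told apart without strand. The other members that fell were the alpha gene Psma4 (-0.51 ± 0.17, adjusted p = 0.041) and the base ATPase Psmc3 (-0.58 ± 0.20, adjusted p = 0.047). Both were lost without CL replicate 1 or 2, PBS replicate 2 or PBS replicate 3 (0.064 to 0.22), Psma4 also without CL replicate 3 (0.069) and Psmc3 without PBS replicate 1 (0.064).

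Without PBS replicate 3 the counts were 4 higher and 3 lower, where 12.8% and 6.95% of 12432 genes were. Psmd11 stood at 1.12 ± 0.21, Psmd5 at -0.95 ± 0.27, Psmd9 at -1.05 ± 0.29 and Psmd10 at -1.03 ± 0.32, all still called, and the base ATPase Psmc6 joined at 0.71 ± 0.19 (adjusted p = 0.016). The count higher was 1 without CL replicate 1 or PBS replicate 1 or 2. The count lower was 3 without CL replicate 1 or 2 or PBS replicate 2 or 3. Apart from the fit without PBS replicate 3, the shares of all genes called in those fits are not given here. The catalytic genes did not pass: Psmb5, Psmb6 and Psmb7 had log2 fold changes of -0.11 ± 0.15, 0.06 ± 0.19 and -0.10 ± 0.20. The brown adipocyte genes summed to 24400 to 31360 CPM with CL, against 15657 to 19084 CPM with PBS (2 of 5 higher), and the macrophage and monocyte genes to 242 to 262 CPM with CL, against 336 to 880 CPM with PBS (5 of 11 lower). The 4 endothelial genes summed to 444 to 483 CPM with CL, against 164 to 272 CPM with PBS (3 of 4 higher). The 7 T and NK cell genes summed to 2.84 to 4.18 CPM with CL, against 6.89 to 139 CPM with PBS (5 of 7 lower). The highest of these PBS sums was that of PBS replicate 3, and Cd8a, Cd8b1 and Gzmb were at 0 with CL. The 5 general adipocyte genes summed to 10570.5 to 15201 CPM with CL, against 17171 to 21214 CPM with PBS (3 of 5 lower and 1 higher). The part of these in the member changes was not tested.

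**Figure D4:**
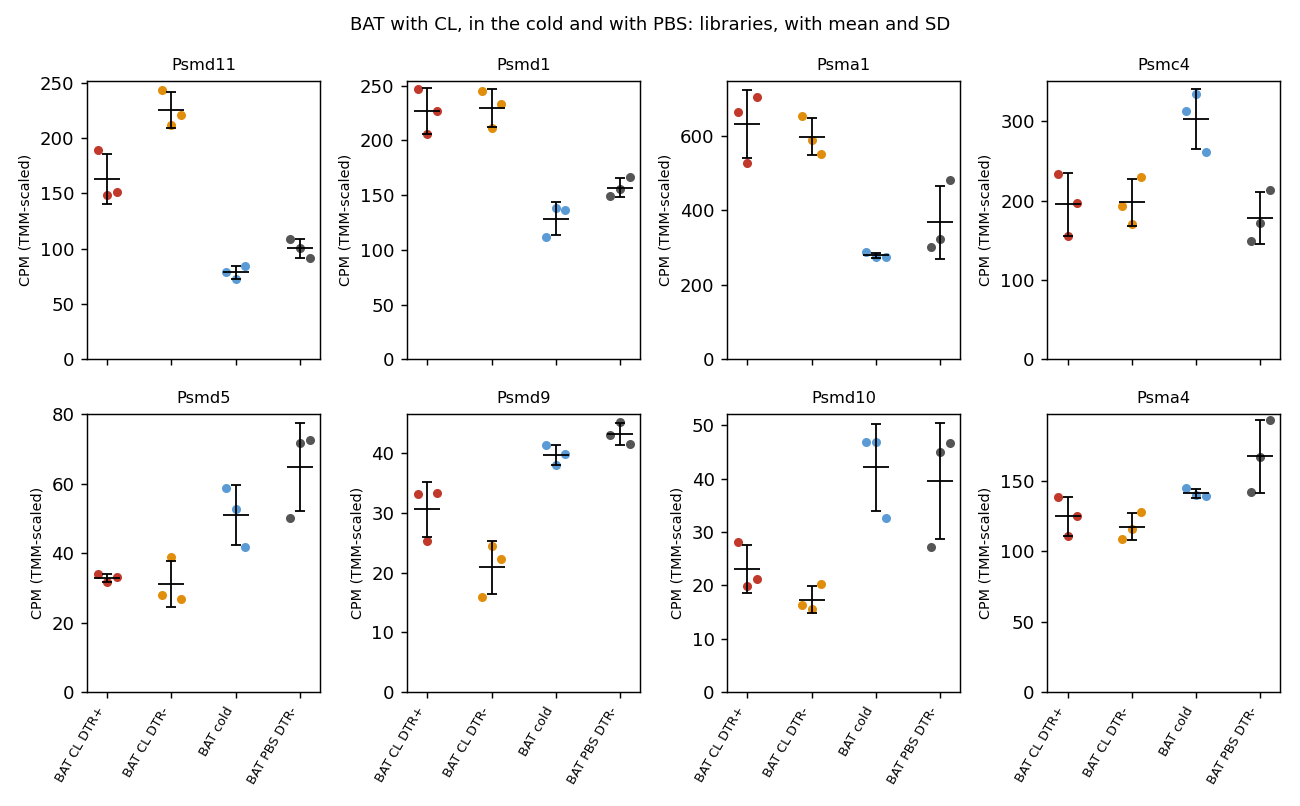
CPM (linear axes from 0) of 8 members in BAT of DTR+ mice with CL, DTR- mice with CL, mice in the cold and DTR- mice with PBS; points are libraries, bars the mean and SD. Psmd11 lies at 212 to 243 CPM in the DTR- mice with CL, against 91.6 to 108 CPM with PBS, while Psmd5, Psmd9 and Psmd10 lie below the PBS libraries in both groups with CL except for 1 overlap of Psmd10 at 28.2 and 27.1 CPM.

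When both groups received CL, Treg depletion changed no member past the threshold. Of 34, 0 were called by edgeR, while 4.51% of 12048 genes were higher and 3.21% lower in DTR+ mice. At an unadjusted p under 0.05 there were 7 members, a smaller share than the 24.9% of all genes. DESeq2 called 1 member higher, and 6.80% of all genes higher and 6.32% lower. Psmb4, a structural beta subunit named here after its values were seen, had 274, 182 and 220.5 CPM in DTR+ mice with CL, against 172, 97.6 and 157 CPM in DTR- mice with CL (0.69 ± 0.21, adjusted p = 0.058). The groups did not overlap, and 1 member was called without DTR+ CL replicate 2, a fit whose share of all genes called is not given here. Psmd11 had 189, 149 and 152 CPM in DTR+ mice with CL, against 243, 212 and 221 CPM in DTR- mice with CL, without overlap (-0.44 ± 0.16, adjusted p = 0.10). Psmc4 averaged 195 ± 39.5 CPM in DTR+ mice and 198 ± 29.7 CPM in DTR- mice (0.00 ± 0.19). Here 28 of 34 members had a positive value, with a median of 0.11, against 0.01 for all genes. Whether this differs from the effect at D4 was not tested. The macrophage and monocyte genes summed to 1167 to 1307 CPM in DTR+ mice with CL, against 242 to 262 CPM in DTR- mice with CL, with 9 of 11 higher. The T and NK cell genes summed to 61.0 to 74.4 CPM in DTR+ mice and 2.84 to 4.18 CPM in DTR- mice, with 3 of 7 higher. The part of these in the values above was not tested. This comparison shares the DTR- libraries with CL with the comparison of CL with PBS.

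In the cold, Psmc4 was the 1 member called higher and 0 were called lower, where 4.86% of 12329 genes were higher and 3.80% lower than in DTR- BAT with PBS. It had 313, 335 and 261 CPM in the cold, against 149, 172 and 213 CPM with PBS, without overlap (0.74 ± 0.17, adjusted p = 0.019). DESeq2 also called 1 member lower, and 5.99% of all genes lower and 7.02% higher. The call was lost without PBS replicate 1 or 2 or cold replicate 1 or 2 (adjusted p = 0.065 to 0.082), and without PBS replicate 3 it stood at 0.89 ± 0.15 (0.0061), with Psmd3 then called lower (-0.84 ± 0.18, adjusted p = 0.019). The medians were -0.20 for the 20S and -0.15 for the 19S, and 6 of 34 were positive. Psmd11 had 78.7, 72.2 and 84.6 CPM in the cold, against 108, 101 and 91.6 CPM with PBS, without overlap (-0.38 ± 0.15, adjusted p = 0.16), and Psmd2 averaged 246 ± 5.50 CPM in the cold and 309 ± 39.9 CPM with PBS (-0.36 ± 0.14, adjusted p = 0.14). The brown adipocyte genes summed to 28511 to 30346 CPM in the cold, against 15657 to 19084 CPM with PBS, with 3 of 5 higher and 1 lower. Of 5 general adipocyte genes 3 were lower, at 10783 to 13012 CPM in the cold and 17171 to 21214 CPM with PBS in sum. Of 4 endothelial genes 2 were higher, at 438 to 573 CPM in the cold and 164 to 272 CPM with PBS in sum. The part of these markers in the member values was not tested.

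The outcome in the cold depended on the control. Against DTR- BAT of D3, 8 members were lower and 0 higher, where 11.4% of 12098 genes were lower and 11.1% higher. These were Psmd11 (-0.86 ± 0.13), Psmd1 (-0.85 ± 0.14), Psmd14 (-0.66 ± 0.15), Psmd2 (-0.58 ± 0.12), Psmd3 (-0.57 ± 0.17), Psmb7 (-0.45 ± 0.15), Psmd8 (-0.40 ± 0.11) and Psmd4, a ubiquitin receptor (-0.38 ± 0.12). Of these 8, 7 are 19S genes. Psmc4 stood at 0.38 against that control (adjusted p = 0.071). Both controls received DT and the cold mice have none listed, so cold and toxin cannot be told apart. The CL and cold comparisons share the PBS libraries. Beside those, Psmd11 was 225 ± 15.9 CPM with CL and 78.5 ± 6.19 CPM in the cold, against 100.2 ± 8.40 CPM with PBS (SD, n = 3 each).

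In the antibody experiments no constitutive member passed the threshold. With PC61 0 of 34 were called by edgeR or DESeq2, where 0.165% of 11513 genes were higher and 0.486% lower by edgeR (0.591% and 1.42% by DESeq2). At an unadjusted p under 0.05 there were 3 members, near the 10.8% of all genes. Psmc4 had 141, 183 and 173 CPM with PC61, against 205, 213 and 187 CPM with isotype, without overlap (-0.27 ± 0.13, adjusted p = 0.45), and Psmd2 averaged 305 ± 27.7 CPM with PC61 and 296 ± 12.8 CPM with isotype (0.05 ± 0.11, adjusted p = 0.90). The members' median was -0.09, or 0.11 below all genes, and 0.02 with library totals, where all genes stood at 0.13. The brown adipocyte genes summed to 10666 to 12412 CPM with PC61, against 13821 to 22429 CPM with isotype (0 of 5 called). The macrophage and monocyte genes summed to 171 to 192 CPM with PC61, against 107 to 147 CPM with isotype (0 of 10 tested called). With anti-IFNg in DTR+ mice 0 of 34 were called by edgeR or DESeq2 and 0 had an unadjusted p under 0.05 (8.17% of all genes), where 0.0333% of 12017 genes were higher and 0.508% lower by edgeR (0.0999% and 0.707% by DESeq2). Psmd2 averaged 246 ± 19.3 CPM with anti-IFNg and 215 ± 17.7 CPM with isotype (0.19 ± 0.11, adjusted p = 0.73), and Psmb6 averaged 302 ± 31.9 CPM with anti-IFNg and 312 ± 42.4 CPM with isotype (-0.05 ± 0.12, adjusted p = 0.96). The immunoproteasome genes Psmb8, Psmb9 and Psmb10 fell by 1.47 ± 0.14, 1.83 ± 0.17 and 0.85 ± 0.15 on the log2 scale in the same libraries (adjusted p = 4.7e-06, 4.7e-06 and 0.010). The T and NK cell genes summed to 11.4 to 19.7 CPM with anti-IFNg, against 22.5 to 39.3 CPM with isotype (0 of 3 tested called). The macrophage and monocyte genes summed to 714 to 995 CPM and 745 to 1601 CPM, with 1 of 11 lower. The part of these markers in either antibody experiment was not tested.

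In Treg cells no constitutive member passed the threshold. Of 34, 0 were called for fat over spleen by edgeR or DESeq2, with 2 at an unadjusted p under 0.05 (26.8% of all genes), where 7.29% of 13847 genes were higher and 5.27% lower by edgeR (9.32% and 6.77% by DESeq2). The medians were -0.03 for the 20S and -0.06 for the 19S, against -0.01 for all genes, and no member exceeded 0.29 in size. With library totals the median of all genes was -0.11 and that of the members -0.15, or 0.04 lower. Psmb6 had 107 and 104 CPM in BAT and 111, 111 and 111 CPM in SAT Treg cells, against 118, 129.6 and 135 CPM in spleen Treg cells (-0.18 ± 0.09, adjusted p = 0.23). Each fat library was below each spleen library, though the difference did not pass. Psmd2 averaged 193 ± 26.7 CPM in fat (n = 5) and 194 ± 5.15 CPM in spleen (n = 3). Between Treg cells of BAT and SAT 0 members and 0% of 13847 genes were called in either direction by edgeR. DESeq2 called 0 members, 0.311% of all genes higher and 0.339% lower, and 1 member had an unadjusted p under 0.05 (8.89% of all genes), Psmc2, a base ATPase (-0.37, adjusted p = 0.47). The 3 immunoproteasome genes were lower in fat Treg cells, at -0.25 ± 0.07 for Psmb8, -0.46 ± 0.10 for Psmb9 and -0.80 ± 0.12 for Psmb10.

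**Figure D5:**
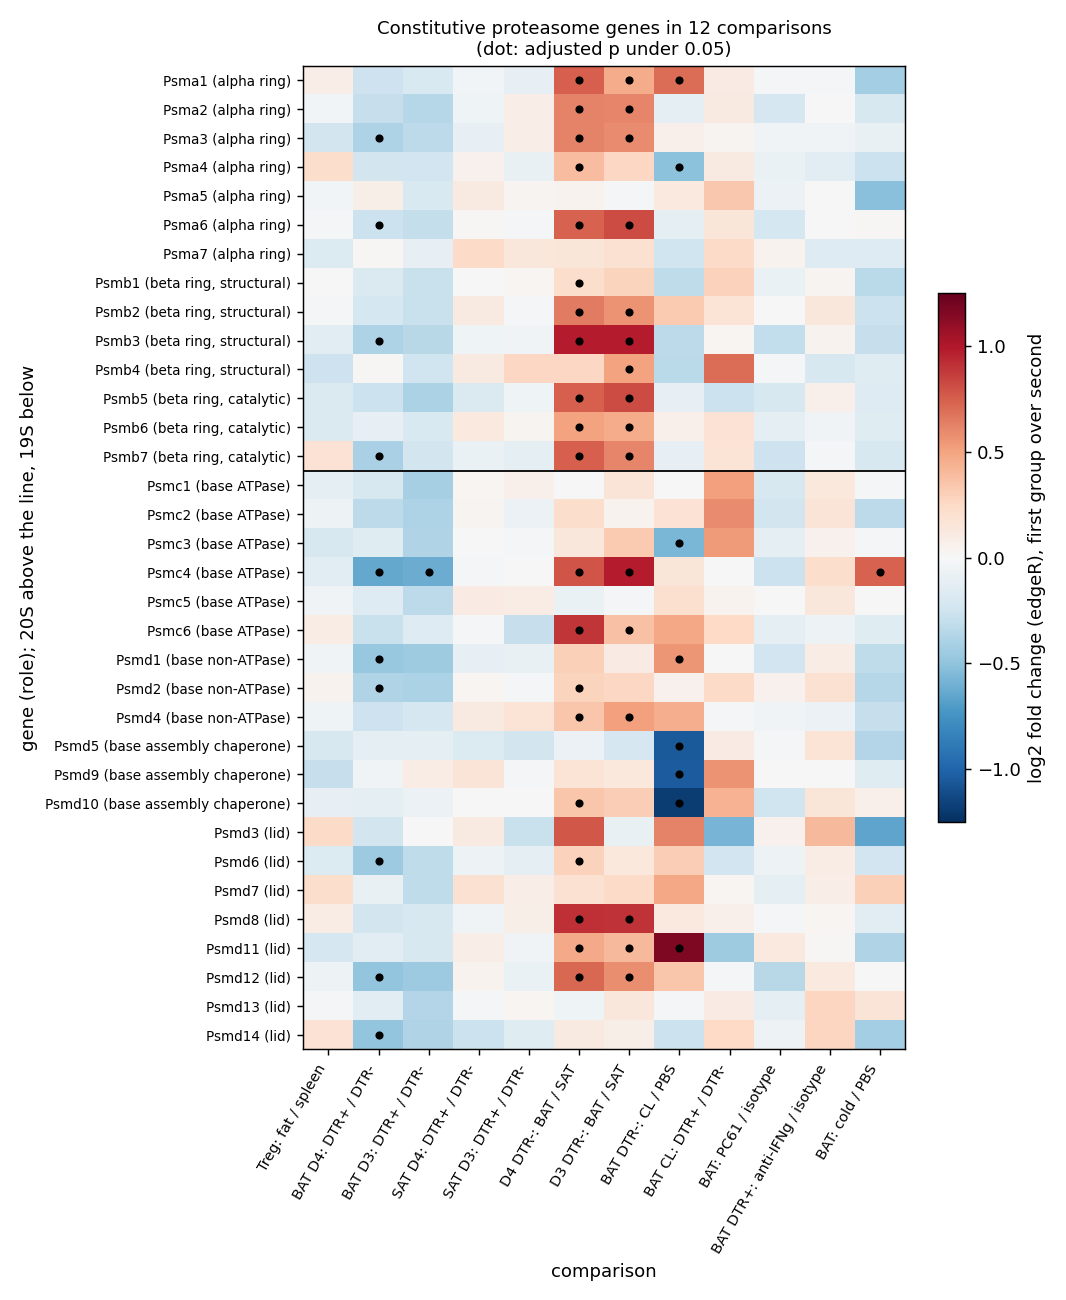
Log2 fold change (edgeR, TMM factors) of the 34 tested members in 12 comparisons, coloured by sign and size; genes are ordered by role, 20S above the line and 19S below, and dots mark an adjusted p under 0.05. The dots gather in D4 BAT (10, all lower), BAT over SAT (20 and 16, all higher) and CL over PBS (3 higher and 5 lower). With library totals D4 BAT keeps 1, and BAT over SAT has 6 higher and 10 lower at D4 and 5 higher and 11 lower at D3. The shares of all genes called on that scale are not given here.

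Other genes of the pathway were read from 6 lists of 40 genes, 39 of them in the count table, which hold the immunoproteasome, other parts and activators of the particle, its assembly chaperones, its transcriptional control, ubiquitin with its activating enzymes, and shuttle proteins. The share of all genes called in each comparison is the one given with its members. With CL, 12 of 38 tested were higher and 1 lower. In transcriptional control 3 of 9 rose: Ddi2, the protease that releases Nrf1 (1.19 ± 0.21, adjusted p = 0.0010), Syvn1, a ubiquitin ligase of the endoplasmic reticulum (1.58 ± 0.29), and Nfe2l1 itself (0.82 ± 0.20, adjusted p = 0.0081). Among shuttles, which carry tagged proteins to the cap, 4 of 6 rose, namely Zfand5 (2.20 ± 0.24), Rad23b (2.26 ± 0.37), Ubqln1 (1.71 ± 0.29) and Ubqln4 (1.20 ± 0.24), and among ubiquitin genes 3 of 5, including the activating enzymes Uba1 (0.81 ± 0.16) and Uba6 (2.05 ± 0.45). Of 10 other parts and activators, Psme3 (1.00 ± 0.35) and the deubiquitinase Usp14 (0.52 ± 0.17) rose, and Psme2, a subunit of the interferon-induced activator, fell by 1.22 ± 0.37 on the log2 scale. Without PBS replicate 3, in which the immunoproteasome genes were high, 11 of 39 were higher and 0 lower, all 11 of them also called with it. Psme2 then stood at -0.57 ± 0.24 (adjusted p = 0.11) and Psme3 at 1.04 ± 0.40 (0.080), so both calls were lost without that library. The 5 assembly chaperones on the lists, which serve the core, had a median of -0.63 and none was called; how they differ from the 3 base chaperones among the members was not tested.

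In DTR+ mice with CL, whose BAT held more macrophage and T cell marker RNA, Nfe2l1 (-0.78 ± 0.20, adjusted p = 0.031), Zfand5 (-1.35 ± 0.23) and Ubqln4 (-1.43 ± 0.25) were lower than in DTR- mice with CL, and Ubb was higher (0.88 ± 0.25), of 38 tested. At D4 in BAT 6 of 39 were higher and 1 lower in DTR+ mice. Besides the immunoproteasome these were Psme1 and Psme2, which form the interferon-induced activator (0.70 ± 0.12 and 0.57 ± 0.11), Nfe2l2, which encodes the stress factor Nrf2 (0.37 ± 0.12, adjusted p = 0.048), and Uba1 (-0.26 ± 0.09, adjusted p = 0.046). At D3, 4 of 38 were higher and 0 lower, the immunoproteasome genes and Psme1 (0.54 ± 0.12). In the cold, Ddi2 was higher (0.85 ± 0.21, adjusted p = 0.029) and Usp14 lower (-1.10 ± 0.18, adjusted p = 0.0042), of 38 tested. Without PBS replicate 3 the call of Ddi2 was lost (0.74 ± 0.22, adjusted p = 0.067), and Usp14 stood at -0.99 ± 0.18 (0.0078). Nfe2l1 was not called in the cold with that library or without it (-0.064 ± 0.16, adjusted p = 0.86 without it). With anti-IFNg Psme1 was lower (-0.57 ± 0.12) beside the immunoproteasome genes, of 39. In fat Treg cells 2 of 39 were higher than in spleen, namely Zfand5 (1.46 ± 0.32) and Ubb (0.49 ± 0.08), and 6 were lower. BAT of DTR- mice had 13 of 39 higher and 7 lower than SAT at D4, beside 25.9% and 25.0% of all genes. With library totals 4 were higher and 18 lower, beside a share of all genes on that scale that is not given here. Nfe2l1 was among the higher on TMM factors, at 0.51 ± 0.10 at D4 and 0.63 ± 0.13 at D3, and was not called with library totals (0.035 and 0.15, adjusted p = 0.77 and 0.25).

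Counting limits touch some members. Exons of Psma4, Psma5, Psmb7, Psmc3, Psmd3, Psmd9 and Psmd13 overlap genes on the opposite strand, and those of Psmb5 and Psmd1 overlap Mir686 and Gm21972 on the same strand, in GENCODE M21. The strand setting is not given in the sources used here, so reads from shared bases cannot be assigned. Of the longer overlaps, Psmb7 shares 405 of 3421 exonic bases with Nek6 and Psmd13 shares 342 of 3377 with Sirt3. Psmb8 and Psmb9 share 498 of 3381 and 212 of 3660 with Gm20496 and Tap1 on the opposite strand, and Ddi2 shares 1749 of 9553 with Rsc1a1 on its own strand. Usp14 shares 2169 of 8345 with Thoc1 on the opposite strand. How reads with several matches were counted is likewise not given, which leaves members with processed pseudogenes uncertain.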

How the data were processed

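Libraries were made from sorted Treg cells or from 2 ng of whole-tissue RNA with Smart-seq2, which reads polyadenylated RNA over its length, per the labels' protocols. The authors deposited a table of raw counts per gene for the 60 libraries. The submitters' processing notes name STAR 2.7.3a, featureCounts and mm10. Strandedness, gene annotation and multi-mapping rules were not given in the sources used here. All 60 columns carry a sample title.

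Counts were tested with edgeR 4.0.16 (R 4.3.3): filterByExpr, TMM factors, robust quasi-likelihood F test, Benjamini-Hochberg adjustment over all genes tested and a threshold of 0.05, in one fit per comparison of the groups it concerns. Tests of differences between tissues or between D4 and D3 were contrasts of the 2 effects within one fit. SE is the log2 fold change divided by the square root of F. CPM were computed with TMM factors over all 60 libraries. Counting error and amplification limit precision at these depths. Alternatives were DESeq2 1.42.0, RLE factors, library totals, no low-count filter, a replicate block, more groups in the fit, another control for cold, and each library left out. The fits were tested on simulated data.

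The members and lists were chosen with earlier results of these data known. For each comparison the text names up to 6 called members in each direction by lowest p, or otherwise the 2 with the highest mean CPM, with Psmb5, Psmb6, Psmb7, Psmc4, Psmd2, Psmd11 and Psmd14 open to description throughout, and up to 4 called genes of each list. A pair of listed genes is not reported here. Replicates of a group, compared in 67 pairs, all differed by more than sampling noise.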

Additional observations from a re-analysis of the deposited data

Results flagged for a closer look

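At D4, the rise of the immunoproteasome genes in DTR+ mice was larger in BAT than in SAT by the test of that difference, by 1.47 ± 0.27 for Psmb8, 1.19 ± 0.25 for Psmb9 and 0.89 ± 0.21 for Psmb10 on the log2 scale (edgeR adjusted p = 0.0065, 0.011 and 0.020). Among constitutive members, 144 tests of single libraries within groups of 4 picked out 8 values that stood apart; chance alone picks about 1 in 20. In BAT, Psma5 was low in DTR+ D4 replicate 1 at 58.2 CPM, Psmd1 was low in DTR- D4 replicate 1 at 174 CPM, and Psmd8 was high in DTR- D4 replicate 2 at 405 CPM. In SAT of DTR+ D4 mice, replicate 3 was high for Psma6 at 218 CPM and for Psmc6 at 107 CPM. In SAT of DTR- D4 mice, replicate 1 was low for Psmc5 at 159 CPM and for Psmd14 at 118 CPM, and replicate 2 was high for Psmc6 at 100.1 CPM.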

How the results depend on the processing

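Of the named gene values under the alternatives, 2731 kept their direction and side of the threshold, 287 lost the call, 11 gained one and 19 changed sign; of the counts of members, 184 stayed within 1.5 times and 31 moved. Library totals gave 1 called member in D4 BAT, 0 in D3 BAT and 1 in DTR+ over DTR- with CL. DESeq2 gave 3 in the D4 difference between tissues, 2 in D3 BAT, 1 in DTR+ over DTR- with CL and 2 in the cold. Without the low-count filter these were 1, 4, 1 and 2. RLE factors gave 1 in the D4 difference, more groups in the fit gave 2 in D3 BAT, and D3 DTR- BAT as control gave 8 in the cold. With single libraries left out, the counts ran from 7 to 16 in D4 BAT, 0 to 2 in the D4 difference, 0 to 1 in D3 BAT, 4 to 7 with CL, 0 to 1 in DTR+ over DTR- with CL and 0 to 2 in the cold. For such fits the share of all genes called is given above only for CL without PBS replicate 3, so the other counts lack a background. Replicate numbers were not treated as pairs, since no comparison had a correlation over 0.1 in every pair. This rule cannot show that samples of the same number came from different mice. For D4 BAT over SAT the correlations ran from 0.038 to 0.12. The replicate block gave 1 called member in the D4 difference and 0 in the cold, where Psmc4 stood at 0.75 (adjusted p = 0.061). Anti-IFNg and isotype libraries share 1 replicate number, so no paired fit was made there.

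With library totals, BAT over SAT changed sign at D4 for Psma4 (-0.10), Psmb1 (-0.26), Psmd10 (-0.14), Psmd11 (-0.0050), Psmd2 (-0.20), Psmd4 (-0.14), Psmd6 (-0.19), Psmd14 (-0.37), Ngly1 (-0.075), Uba1 (-0.12) and Zfand5 (-0.0070), and at D3 for Psma1 (-0.011), Psmb6 (-0.0082), Psmc6 (-0.11), Psmd11 (-0.067), Psmd14 (-0.40), Sem1 (-0.14), Usp14 (-0.13) and Ngly1 (-0.066); these moved with the all-gene median. Over all genes, counts also moved. Without the filter 155 were called in D4 SAT against 40, 887 in the D4 difference between tissues against 555, 788 in D3 BAT against 411, 72 in D3 SAT against 0, 273 in the D3 difference against 9, 45 in the difference between D4 and D3 against 0, 136 in BAT over SAT Treg cells against 0, 1552 in DTR+ over DTR- with CL against 930, 347 with PC61 against 75, 172 with anti-IFNg against 65 and 1744 in the cold against 1068. DESeq2 called 93, 982, 580, 19, 142, 4, 90, 1581, 231, 97 and 1603 in these. Library totals gave 1073 in the D4 difference, 628 in D3 BAT and 62 in the D3 difference, the replicate block 1 in BAT over SAT Treg cells, 11 in D3 SAT and 658 in the cold, more groups in the fit 3 in D3 SAT, and the D3 control 2724 in the cold. The cause was not tested. Groups of 3 or 4 libraries limit how small a difference can be called.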
